A study of Mus musculus with 6 samples.

Results

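The genes described here are 10 genes that mark megakaryocytes, the marrow cells that shed platelets, and the platelets themselves: Itga2b, Itgb3, Gp1ba, Gp1bb, Gp5, Gp6, Gp9, Pf4, Ppbp and Vwf. All array probes other than controls whose RefSeq accession belongs to one of these symbols were taken, which gave 13 probes for 10 genes out of 55681 probes for 36799 genes. Each of the 10 genes had a probe that passed the filter on dim probes. Gp1ba and Gp5 did so through the polyI:C arrays only, and Gp6 through the untreated pool only. The genes were chosen from their levels in Cdk6-/- cells, which were known to be higher under polyI:C. The values of that contrast are therefore given below as a description, without p-values. Counts of the 10 genes passing limma in it appear only where the dependence on processing is described, and they support nothing.

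The RNA came from mouse bone marrow hematopoietic stem cells (HSCs) of Cdk6-/- or wild-type mice, untreated or polyI:C-treated. PolyI:C is a double-stranded RNA analogue used to provoke an interferon response. CDK6 is a kinase that pairs with D-type cyclins to drive cells from G1 into S phase. A Cdk6-/- sample labelled with Cy5 and the sorted wild-type pool that matched its treatment, labelled with Cy3, were hybridised together on each of 6 arrays, 3 untreated and 3 polyI:C. The same pool was hybridised 3 times per treatment, so a wild-type value is 1 control sample and its SD is technical. The series calls the 3 Cdk6-/- samples of a treatment biological replicates. The sources used here do not give the number, age and strain of the mice, the polyI:C dose or the interval after it. The arrays are numbered in accession order, and the numbers pair nothing across treatments. No dyes were swapped, so a probe's dye bias cannot be told apart from a genotype difference within one treatment, but it cancels when the ratio under polyI:C is set against the untreated ratio. The cells are a bulk sort, in which fewer cells of a type and less RNA per cell cannot be told apart.

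Of 59305 spots per array, 47.0 to 76.5% were well above background in Cy5 and 54.4 to 75.6% in Cy3, and none was saturated. polyI:C array 3, alone on its slide, had the highest share in both channels. All 14 markers of the HSC list were well above background in both channels on all 6 arrays. Markers of granulocytes (12 of 12) and B cells (9 of 9) were also above background on every untreated array. The log2 ratio of Xist, the RNA of the inactive X chromosome, was -3.98 in untreated array 3, -3.42 in polyI:C array 3 and 0.42 to 1.87 in the other 4 arrays. The megakaryocyte and platelet genes described here were refitted without these arrays, and calls lost there are marked below. Calls on markers of HSCs and of other cells were not rerun without these arrays. An unmarked call on such a marker is therefore unchecked.

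Megakaryocytes arise from HSCs by way of progenitors that already carry the integrin CD41, the product of Itga2b. Some HSCs also express this programme at a low level, and HSCs that express Vwf are known for a bias toward the platelet lineage. On the finished platelet, the GPIb-IX-V complex catches von Willebrand factor under flow, GPVI binds collagen, and the integrin made of the Itga2b and Itgb3 products binds fibrinogen and links platelets to each other. The alpha granules release chemokines such as the products of Pf4 and Ppbp. Inflammation is known to raise platelet-lineage proteins in stem-like cells of mouse marrow.

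In outline, polyI:C samples held more of most of these transcripts in both genotypes. In Cdk6-/- cells 7 of 10 genes were higher on every polyI:C array than on any untreated one, against 9.24% of all genes, which describes the contrast the genes were proposed from and no more. In the wild-type pools the same count was 7 of 10, against 19.3% of all genes, and 1 gene, Ppbp, was lower with no overlap (23.2% of all genes). Both counts of 7 include Gp1ba and Gp5, which passed the filter only through the arrays where they were high, so neither count is support. Between genotypes, untreated Cdk6-/- cells had less Itgb3, Ppbp and Gp1bb and more Vwf than the untreated pool, by limma with Benjamini-Hochberg adjusted p under 0.05 over the 22630 genes tested. That is 1 of 10 genes higher and 3 of 10 lower, where 3.06% of all genes were higher and 9.96% lower. Under polyI:C 0 of 10 passed in limma, with 4 of 10 at an unadjusted p under 0.05 (13.4% of all genes), and 0.327% of all genes were higher and 0.654% lower. For 2 of 10, Itgb3 and Ppbp, the genotype ratio itself rose between treatments (for 1.60% of all genes it rose and for 0.203% it fell).

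**Figure D1:**
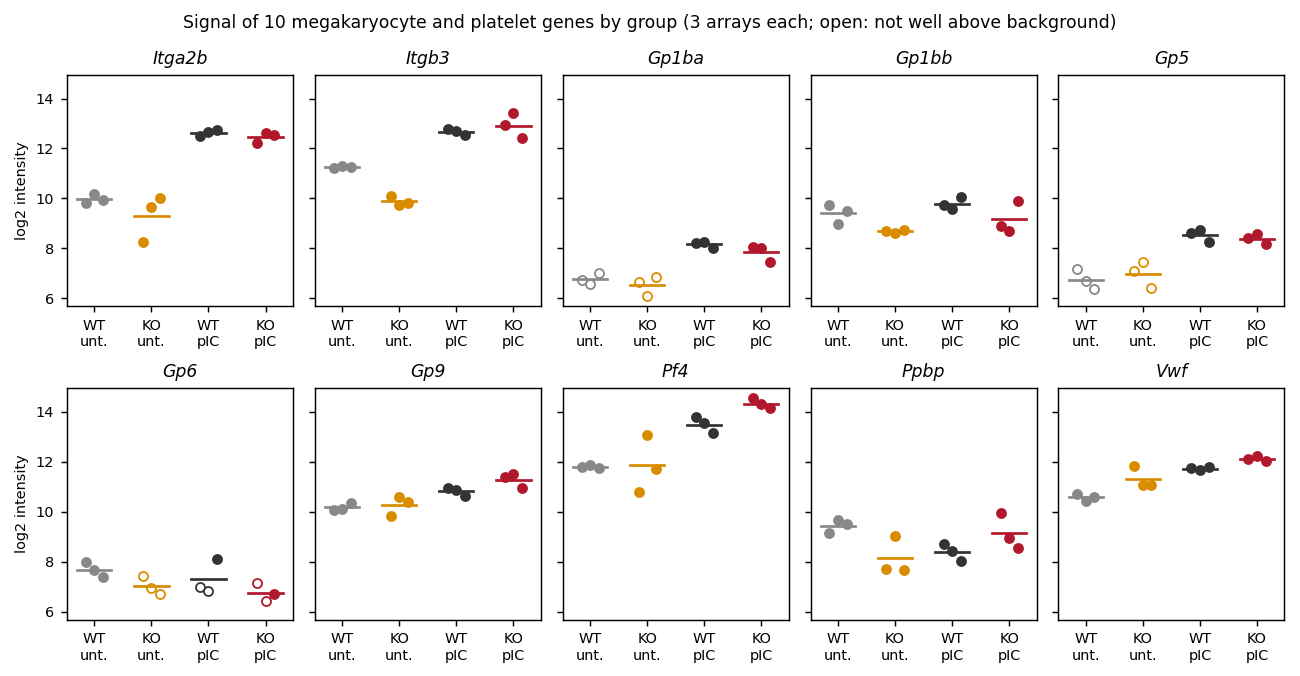
Levels of the 10 genes (y axis, log2 intensity after normalization between arrays) in the untreated and polyI:C-treated wild-type pools and Cdk6-/- samples, 1 point per array. Levels of different genes come from different probes and are not comparable; within a gene, bars are means of 3 arrays, open points are not well above background, WT is the pool and KO is Cdk6-/-. Itga2b, Itgb3 and Pf4 are higher under polyI:C in both genotypes, while the groups of Gp6 overlap.

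RefSeq promoter windows (GRCm38.p6) were at hand for 8 of 10 genes. Those of 3 genes whose levels were higher under polyI:C in both genotypes and of Ppbp, which was not, are printed because these are the regulatory sequences beside which the values below can be read. Each is the 250 bases before the annotated start, 5′ to 3′ on the gene's strand. Capitals mark GGAAG, the core bound by ETS factors such as FLI1, and GATAA, the core bound by GATA factors, each on either strand (read as CTTCC and as TTATC on the opposite strand).
Itga2b, chr11:102469884-102470133, minus strand: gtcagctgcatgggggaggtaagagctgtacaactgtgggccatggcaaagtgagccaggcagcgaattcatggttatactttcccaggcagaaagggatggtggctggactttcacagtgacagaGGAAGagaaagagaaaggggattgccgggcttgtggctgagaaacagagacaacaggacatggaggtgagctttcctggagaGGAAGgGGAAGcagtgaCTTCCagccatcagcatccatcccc
Gp5, chr16:30310782-30311031, minus strand: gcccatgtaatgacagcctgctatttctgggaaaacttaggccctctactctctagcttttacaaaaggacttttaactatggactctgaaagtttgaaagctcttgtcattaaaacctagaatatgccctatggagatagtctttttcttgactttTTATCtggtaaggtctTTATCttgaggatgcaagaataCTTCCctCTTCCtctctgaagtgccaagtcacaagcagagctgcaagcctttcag
Pf4, chr5:90772185-90772434, plus strand: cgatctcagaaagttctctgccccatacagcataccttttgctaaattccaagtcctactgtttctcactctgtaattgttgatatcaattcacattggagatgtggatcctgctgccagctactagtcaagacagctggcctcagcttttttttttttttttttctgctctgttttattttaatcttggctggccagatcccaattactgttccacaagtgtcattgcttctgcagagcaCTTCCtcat
Ppbp, chr5:90768268-90768517, plus strand: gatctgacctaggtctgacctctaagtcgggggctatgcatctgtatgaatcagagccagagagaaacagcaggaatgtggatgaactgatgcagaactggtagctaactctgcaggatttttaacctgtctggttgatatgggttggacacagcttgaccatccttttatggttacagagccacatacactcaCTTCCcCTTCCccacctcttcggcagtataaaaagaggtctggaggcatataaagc
The Itga2b window held 4 GGAAG matches and no GATAA, the Gp5 window held 2 of each, and the Pf4 and Ppbp windows held 1 and 2 GGAAG and no GATAA. No matches overlapped. Over the 8 windows, GGAAG was in 7 (64.1% of all 32851 promoters), GATAA in 4, those of Gp1ba, Gp5, Gp6 and Gp9 (22.6% of all), and TGTGGT, the core bound by RUNX factors, in 1, that of Gp9 (14.0% of all). GATAA and GGAAG stood together in 3 of 8 windows (13.2% of all). These are letter matches in a fixed window, not measured binding. The Ppbp and Pf4 windows lie close together on chromosome 5, and their levels differed in direction in the wild-type pools, as given below.

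Itga2b encodes the alpha subunit of the fibrinogen receptor. Its log2 level in the untreated Cdk6-/- samples was 8.26, 9.67 and 10.003 on arrays 1 to 3, and under polyI:C 12.20, 12.64 and 12.52. In the pools it was 9.83, 10.16 and 9.93 untreated and 12.50, 12.66 and 12.73 under polyI:C. The groups of either genotype lay far apart, and the lowest Cdk6-/- value was that of untreated array 1. The difference between treatments was 3.14 log2 units in Cdk6-/- cells (8.82-fold, SE 0.47) and 2.65 in the pools (6.29-fold). The genotype log2 ratio was -1.57, -0.49 and 0.07 untreated and -0.29, -0.02 and -0.21 under polyI:C. Untreated array 1 was low and array 3 near 0, so the untreated mean of -0.66 ± 0.84 (SD, n = 3) did not pass the test (limma adjusted p = 0.134), nor did the polyI:C mean of -0.18 (adjusted p = 0.825). The change of the ratio was 0.49 (SE 0.38, adjusted p = 0.575).

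Itgb3 encodes the beta subunit of the same receptor, and its genotype difference was the clearest among the 10 genes. The log2 level in untreated Cdk6-/- samples was 10.09, 9.74 and 9.83, against 11.22, 11.30 and 11.24 in the pool. Under polyI:C it was 12.93, 13.40 and 12.42 in Cdk6-/- samples, against 12.78, 12.69 and 12.52 in the pool. All untreated Cdk6-/- values lay below all pool values, and under polyI:C the genotypes overlapped. The untreated log2 ratio was -1.13, -1.56 and -1.41, a mean of -1.37 ± 0.22 (SD, n = 3) that passed the test (limma adjusted p = 0.0028), as it did under each alternative setting run on this ratio. The polyI:C ratio was 0.15, 0.72 and -0.10, with a mean of 0.25 (SE 0.20, adjusted p = 0.636). The ratio rose by 1.62 between treatments (SE 0.28, adjusted p = 0.0225), since the level was 3.03 higher with treatment in Cdk6-/- cells (8.17-fold) and 1.41 higher in the pools (2.66-fold). Within slide 1 the change was 1.42 and within slide 2 it was 2.28.

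A second Itgb3 probe was also below 0 untreated, with smaller ratios of -0.19, -0.59 and -0.08. Under polyI:C it was at 0.12, 0.77 and 0.45, above 0 on array 3 as well, where the first probe was below 0. Its ratio changed by 0.73, and its level was 3.01 higher with polyI:C in Cdk6-/- cells and 2.27 higher in the pools. With both probes averaged, the untreated ratio was -0.83 (adjusted p = 0.0167) and the change of the ratio 1.18 (adjusted p = 0.0462). The call on the change of the ratio was lost when any 1 array but untreated array 1 was left out: it was 1.52 (adjusted p = 0.0502) without untreated array 2, 1.60 (0.0792) without untreated array 3, and 1.67 (0.0645), 1.39 (0.0898) and 1.80 (0.0685) without polyI:C arrays 1, 2 and 3. The direction held in each. Leaving out the pair of arrays low in Xist gave 1.78 (adjusted p = 0.141), with slide as a fixed block 1.79 (0.109) and with the scanner's processed signals 1.71 (0.0593).

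The 4 genes of the GPIb-IX-V complex ranged from below background to well measured. Gp1ba encodes the subunit that binds von Willebrand factor. Its probe was not well above background on any untreated array in either channel, at log2 6.63, 6.10 and 6.84 in Cdk6-/- samples and 6.74, 6.59 and 7.03 in the pool. Under polyI:C all arrays measured it, at 8.05, 8.03 and 7.44 in Cdk6-/- samples and 8.23, 8.27 and 8.02 in the pool. The polyI:C level was therefore at least 1.85-fold higher in Cdk6-/- cells and at least 2.43-fold higher in the pools, taking the untreated level at the lowest signal called above background on that array, or at its own where higher. These bounds compare single channels after normalization between arrays. The differences from the dim untreated signals were 1.32 and 1.39 log2 units, and 2.59 and 2.62 with the scanner's processed signals. They depend on how that background is treated. The ratio was -0.26 untreated, between dim signals, and -0.33 under polyI:C (limma adjusted p = 0.455), and its change was -0.07 (adjusted p = 0.936), and of either sign across the settings run.

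Gp5, the gene of the thrombin-cleaved subunit, showed the same pattern. It was not well above background untreated, at log2 7.09, 7.46 and 6.42 in Cdk6-/- samples and 7.17, 6.68 and 6.37 in the pool. Under polyI:C it was 8.41, 8.57 and 8.19 against 8.61, 8.73 and 8.26. Each polyI:C value exceeded each untreated one, and the bounds were at least 2.25-fold in Cdk6-/- cells and at least 2.85-fold in the pools. The differences from the dim untreated signals were 1.40 and 1.79 (2.83 and 3.80 with processed signals). The polyI:C ratio was -0.20, -0.16 and -0.07, below 0 on all 3 arrays with a mean of -0.14 ± 0.07 (SD, n = 3), which did not pass (adjusted p = 0.802). Its change was -0.39 (adjusted p = 0.529).

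Gp9 encodes the small subunit that the complex needs to reach the surface. Its log2 level in Cdk6-/- samples was 9.82, 10.59 and 10.37 untreated and 11.39, 11.53 and 10.93 under polyI:C. In the pools it was 10.07, 10.12 and 10.35 untreated and 10.95, 10.87 and 10.63 under polyI:C. The treatment groups did not overlap in either genotype, with differences of 1.02 (2.03-fold) and 0.64 (1.55-fold). The ratio was -0.24, 0.48 and 0.02 untreated, around 0, and 0.45, 0.66 and 0.31 under polyI:C, above 0 on all 3 arrays. The polyI:C mean of 0.47 ± 0.18 (SD, n = 3) did not pass (limma adjusted p = 0.311), and the change of the ratio was 0.39 (adjusted p = 0.518).

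Gp1bb encodes the subunit joined to the Gp1ba product by disulfide bonds. In contrast to the other 3 subunits, its treatment groups overlapped on the brightest probe, which stands for the gene. Cdk6-/- samples were at log2 8.69, 8.61 and 8.75 untreated and 8.89, 8.68 and 9.89 under polyI:C. Of the polyI:C values, array 2 lay among the untreated ones, array 1 just above them and array 3 well above. The pools were at 9.75, 8.99 and 9.51 untreated and 9.73, 9.58 and 10.06 under polyI:C. The differences between treatments were 0.47 and 0.38. The untreated ratio of -1.05, -0.37 and -0.76 was below 0 on all 3 arrays, with a mean of -0.73 ± 0.34 (SD, n = 3) that passed the test (limma adjusted p = 0.0442). The polyI:C ratio was -0.64 (adjusted p = 0.210) and the change 0.09 (adjusted p = 0.922).

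The Gp1bb call is a narrow one. The other probes of the gene gave untreated ratios of -0.29 and 0.23, and the mean over the 3 probes was -0.26 (adjusted p = 0.322). The call was lost without untreated array 1 (-0.57, adjusted p = 0.215), untreated array 2 (-0.91, 0.0547), untreated array 3 (-0.71, 0.147), polyI:C array 1 (-0.73, 0.0612) or polyI:C array 2 (-0.73, 0.0660). It was also lost with each array centred on its median in place of loess (-0.40, adjusted p = 0.194) and without both arrays low in Xist (-0.71, 0.0983). On the other probes the differences between treatments were 0.10 and 0.51 in Cdk6-/- cells and -0.34 and 0.61 in the pools. The probe with 0.61 had pool groups that did not overlap. The probes at -0.73 and -0.29 carry the same RefSeq transcript, and the probe at 0.23 carries another. Gp1bb lies just behind Septin5, and transcripts that read from one gene into the other are known. Which transcripts the 3 probes met is uncertain and was not tested.

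Gp6, the collagen receptor, stood apart from the other receptors. In untreated Cdk6-/- samples it was not well above background on any array (log2 7.42, 6.94 and 6.70), while the untreated pool was above background on all 3 (8.00, 7.65 and 7.37). Under polyI:C only array 3 measured it in either channel, at 6.68 in the Cdk6-/- sample and 8.09 in the pool, and arrays 1 and 2 were dim at 7.16 and 6.44 against 6.99 and 6.82. The lowest signal called above background was 6.08 in Cy5 and 6.23 in Cy3 on that array 3, and 6.68 to 7.14 on the other arrays. The Cdk6-/- sample was thus called there at a level that was dim elsewhere. The untreated pool was at least 1.39-fold higher than the untreated Cdk6-/- samples by the bound above. Gp6 passed the filter only through this pool, so the bound is a description and no support. The untreated ratio of -0.58, -0.71 and -0.67 had a small spread but did not pass (mean -0.65 ± 0.07, SD, n = 3, limma adjusted p = 0.127), and without polyI:C array 3 the same mean passed (adjusted p = 0.0339). That array's ratio of -1.41 lay far from the 0.17 and -0.38 of the other polyI:C arrays, whose signals were dim.

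**Figure D2:**
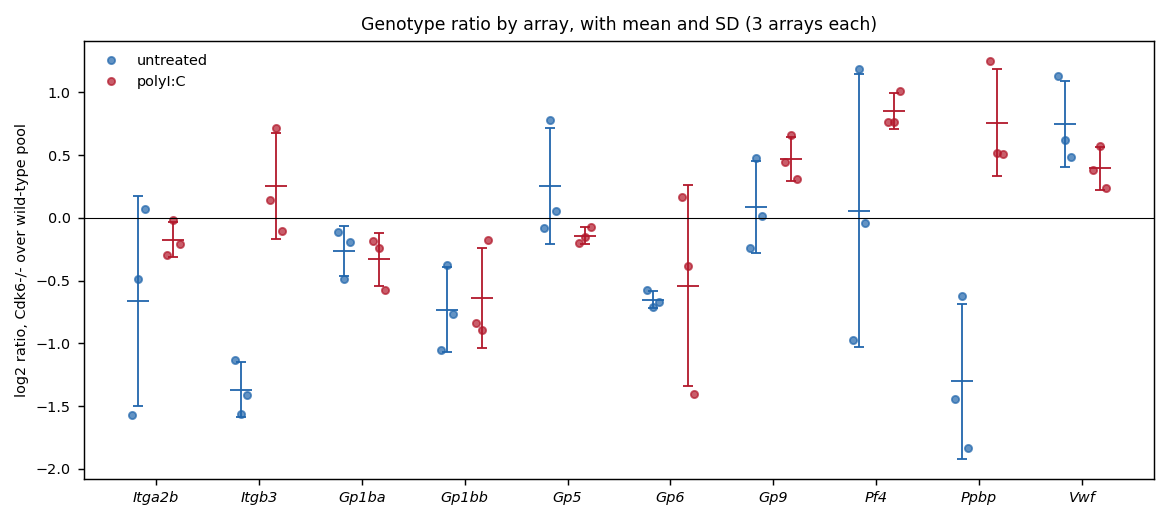
Log2 ratio of Cdk6-/- to the wild-type pool (y axis) for the 10 genes on the 3 untreated and 3 polyI:C arrays, 1 point per array with the mean and SD of 3 arrays. Itgb3 and Ppbp are below 0 untreated with no overlap with their polyI:C values; Vwf is above 0 on all 6 arrays.

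Among the secreted products, Pf4 encodes platelet factor 4, a chemokine of the alpha granule. Its log2 level in Cdk6-/- samples was 10.80, 13.06 and 11.70 untreated and 14.54, 14.30 and 14.16 under polyI:C. In the pools it was 11.78, 11.88 and 11.74 untreated and 13.78, 13.53 and 13.14 under polyI:C. The untreated Cdk6-/- samples spread over more than the whole treatment difference of the pools, with array 1 lowest and array 2 highest, while the polyI:C samples lay close together. The differences between treatments were 2.48 in Cdk6-/- cells (5.56-fold, SE 0.53) and 1.69 in the pools (3.22-fold). The ratio was -0.97, 1.19 and -0.04 untreated (mean 0.06 ± 1.08, SD, n = 3, limma adjusted p = 0.928). Under polyI:C it was 0.76, 0.77 and 1.01, above 0 on all 3 arrays with a mean of 0.85 ± 0.14 (SD, n = 3) that did not pass (adjusted p = 0.287). The change of the ratio was 0.79 (adjusted p = 0.428). Without untreated array 2 the untreated mean was -0.51 (adjusted p = 0.270).

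Ppbp encodes pro-platelet basic protein, the precursor of the chemokine CXCL7, and was the gene whose genotype ratio changed most among the 10. Its log2 level in Cdk6-/- samples was 7.70, 9.04 and 7.68 untreated and 9.94, 8.94 and 8.54 under polyI:C. In the pools it was 9.14, 9.67 and 9.51 untreated and 8.69, 8.42 and 8.04 under polyI:C. The pool was thus lower with treatment on all arrays, while the Cdk6-/- groups overlapped, untreated array 2 lying among the polyI:C samples. The differences between treatments were 1.002 in Cdk6-/- cells (2.003-fold) and -1.06 in the pools. The untreated ratio was -1.45, -0.62 and -1.83, a mean of -1.30 ± 0.62 (SD, n = 3) that was lower (limma adjusted p = 0.0091). The polyI:C ratio was 1.25, 0.52 and 0.51, a mean of 0.76 ± 0.43 (SD, n = 3, adjusted p = 0.214). The ratios changed sign between treatments on all arrays, and the rise of 2.06 passed (SE 0.35, adjusted p = 0.0215), with 2.89 within slide 1 and 1.14 within slide 2.

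Both Ppbp calls depended on single arrays. The untreated ratio missed the threshold without untreated array 1 (-1.23, adjusted p = 0.0527), untreated array 3 (-1.03, 0.0658) or both arrays low in Xist (-1.03, 0.0866). The change of the ratio was lost without untreated array 1 (1.99, adjusted p = 0.0615), untreated array 3 (1.79, 0.0792) or polyI:C arrays 1 (1.81, 0.0701), 2 (2.18, 0.0581) or 3 (2.19, 0.0879), and on leaving out the pair low in Xist (1.92, 0.146). It was lost as well with slide as a fixed block (2.14, adjusted p = 0.128), with processed signals (2.46, 0.0830) and without the filter on dim probes (2.06, 0.0513). The direction was the same in each.

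Vwf encodes von Willebrand factor, the ligand of the Gp1ba product, which endothelial cells also make. It was the 1 gene of the 10 that was higher in untreated Cdk6-/- cells. The log2 level was 11.85, 11.06 and 11.06 in untreated Cdk6-/- samples against 10.72, 10.44 and 10.58 in the pool, and 12.11, 12.23 and 12.02 against 11.73, 11.66 and 11.78 under polyI:C. Cdk6-/- values exceeded those of the pool on all 6 arrays, and polyI:C values exceeded untreated ones in both genotypes, by 0.80 (1.74-fold) in Cdk6-/- cells and 1.15 (2.22-fold) in the pools. The untreated ratio was 1.13, 0.62 and 0.48, a mean of 0.75 ± 0.34 (SD, n = 3, limma adjusted p = 0.0265), or 1.68-fold. The polyI:C ratio was 0.38, 0.57 and 0.23, a mean of 0.39 ± 0.17 (SD, n = 3, adjusted p = 0.396), and the change of the ratio was -0.35 (adjusted p = 0.555). The untreated call was lost without untreated array 1 (0.55, adjusted p = 0.158), array 2 (0.81, 0.0694), array 3 (0.88, 0.0534) or both arrays low in Xist (0.88, 0.0565). Of the endothelial markers, Tek was lower in untreated Cdk6-/- cells (-0.75, limma adjusted p = 0.0487), Kdr (-0.54, 0.0907), Pecam1 (-0.34, 0.278) and Emcn (0.13, 0.775) did not pass, and Cdh5 was too dim to be tested. The Tek call was not rerun without the arrays low in Xist. The part of the endothelial markers in the Vwf result was not tested.

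**Figure D3:**
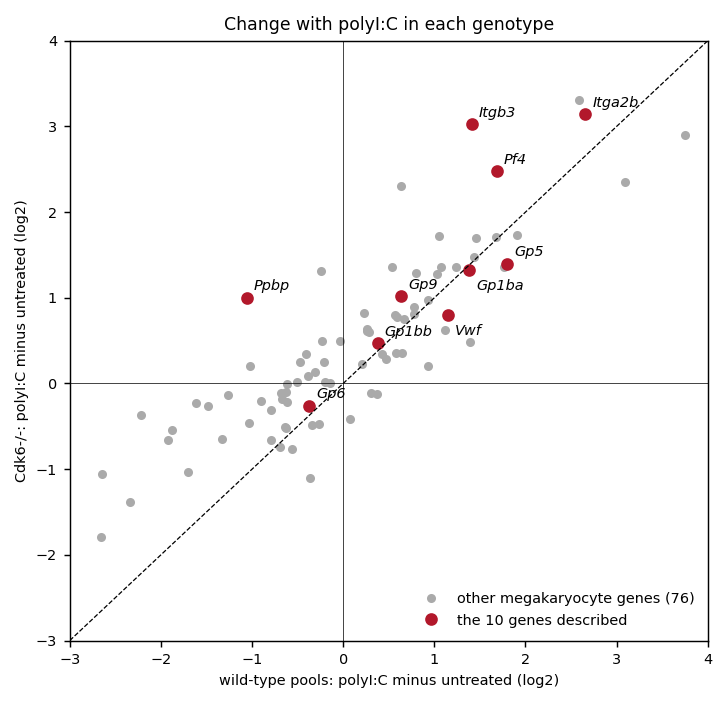
Difference between polyI:C and untreated log2 levels in the wild-type pools (x axis) and in Cdk6-/- cells (y axis), 1 point per gene, with the line of equal differences. Red points are the 10 genes and grey points 76 other megakaryocyte and platelet genes. Of the 10, Ppbp (-1.06 in the pools, 1.002 in Cdk6-/- cells) and Itgb3 (1.41 and 3.03) lie farthest above the line; Gp1ba, Gp5 and Gp6 rest partly on dim signals.

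Set side by side, the median over the 10 genes was -0.46 for the untreated ratio, 0.05 for the polyI:C ratio and 0.25 for the change of the ratio. Over all tested genes these medians were -0.05, -0.02 and 0.04. The difference between treatments had a median of 1.27 in the pools, or 1.22 with Gp1ba and Gp5 at their bounds, against -0.0021 over all genes. In Cdk6-/- cells, the contrast the genes were proposed from, the 2 medians were 1.17 and 1.01, from which nothing is read. In the pools 6 of 10 genes were higher with treatment by at least 1 log2 unit (4.22% of all genes) and 1 was lower by as much (8.08%). The 6 include Gp1ba and Gp5, which passed the filter only through the polyI:C arrays, where they were high. The count and the medians are therefore a description and no support. Each difference between treatments shares its channel with the ratios, Cy3 for the pools and Cy5 for Cdk6-/- cells.

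The scaling within arrays mattered for the polyI:C ratio. With each array centred on its median in place of loess, the median over all genes moved from -0.05 to 0.30 untreated and from -0.02 to 0.21 under polyI:C, and genes called higher went from 692 of 2945 to 4857 of 6188 untreated and from 74 of 222 to 2329 of 2567 under polyI:C. Under that scaling 5 of 10 genes were higher under polyI:C: Pf4 (1.75, limma adjusted p = 0.0021), Ppbp (0.92, 0.0314), Itgb3 (0.90, 0.0274), Vwf (0.86, 0.0231) and Gp9 (0.81, 0.0329). Itga2b, at -0.18 with loess, was at 0.42. In the untreated ratio the calls on Itgb3, Ppbp and Vwf held, and 3 of 10 genes passed.

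The 10 genes did not form 1 pattern over the 12 channel levels. Itga2b, Itgb3, Gp1ba, Gp5, Gp9, Pf4 and Vwf correlated with each other with Pearson r from 0.60 (Itgb3 and Vwf) to 0.95 (Gp9 and Pf4), with 0.90 for the integrin subunits Itga2b and Itgb3. Ppbp correlated with the other 9 at -0.29 to 0.28, Gp6 at -0.59 to 0.39, and Gp1bb at -0.07 to 0.48. The 12 levels share 6 hybridisations, 2 pools and the treatment, so these values describe the samples only. By the same measure, the 5 probes most like the mean of the 10 genes were those of Tuba8, an alpha-tubulin made in platelets (0.98), Ifi211, an interferon-induced gene (0.98), and Clca3a1 (0.97), and 2 probes without a symbol here.

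Of 82 other megakaryocyte and platelet genes listed by role, 76 were tested. In the untreated ratio 14 were lower (9.96% of all genes) and 1 was higher (3.06%), with a median of -0.28. Under polyI:C 1 was higher (0.327% of all genes, median 0.05), and the ratio rose for 4 (1.60%, median 0.34). The same untreated shares stand beside the counts by role below. Between treatments, 3 of 76 were higher in Cdk6-/- cells (0.110% of all genes higher, 0.0574% lower), and the median difference over the list was 0.24 there and -0.09 in the pools. That count of 3 was 0 when any 1 array or the pair low in Xist was left out, with processed signals, without the filter on dim probes and with slide as a fixed block, and 6 with slide as a random block. Among 27 receptors and signalling genes, P2ry1, an ADP receptor, was higher in untreated Cdk6-/- cells (0.67, limma adjusted p = 0.0257), and Cd36, a scavenger receptor (-1.17, 0.0191), and Fcer1g, the signalling partner of GPVI (-1.07, 0.0212), were lower. P2ry1 was 3.75 higher with treatment in the pools and 2.90 in Cdk6-/- cells, and F2r, a thrombin receptor, 3.09 and 2.35. Among 20 granule and enzyme genes 4 were lower untreated, with F5, coagulation factor V, at -1.07 (adjusted p = 0.0086) and Sparc, a matrix protein, at -1.21 (0.0244). Among 16 cytoskeletal genes 4 were lower, with Vcl, vinculin, at -0.96 (0.0064), and Tuba8 was 3.31 higher with treatment in Cdk6-/- cells. Among 13 regulators 3 were lower and none higher, with Lyl1 at -0.82 (0.0108). The calls on Vcl and F5 held when any 1 array was left out and were lost when arrays were centred on their medians (-0.44, adjusted p = 0.133, and -0.52, 0.0932). Centring also ended the calls on Fcer1g (-0.29, adjusted p = 0.378), Lyl1 (-0.27, 0.362) and Sparc (-0.65, 0.108). Without untreated array 3 the calls on P2ry1 (0.68), Cd36 (-1.33), Fcer1g (-0.81), Sparc (-0.72) and Lyl1 (-0.76) were lost, without array 1 those on P2ry1 (0.75), Fcer1g (-1.13) and Sparc (-1.38), without array 2 those on P2ry1 (0.57) and Cd36 (-0.72), and without polyI:C array 2 that on P2ry1. If untreated array 3 was left out, 2 of the 15 untreated calls on the wider list were made.

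The ratio rose between treatments for Fcer1g (1.85, limma adjusted p = 0.0331), Clu, clusterin (1.67, 0.0165), Tpm4, a tropomyosin (1.39, 0.0444), and Lyl1 (1.22, 0.0310). Clu was also the 1 gene of the wider list higher under polyI:C (0.92, 0.0477), a call lost when any 1 of the 6 arrays was left out. None of these calls on the change of the ratio was made without untreated array 3 or any 1 of the polyI:C arrays, or with slide as a fixed block, and all kept their direction.

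Some markers of other cells also differed between genotypes. Over all genes, 9.96% were lower and 3.06% higher in the untreated ratio. In the untreated ratio, B cell markers were lower for 7 of 9, granulocyte markers for 4 of 12, monocyte markers for 3 of 10, erythroid markers for 4 of 15, mast cell or basophil markers for 3 of 6, T or NK cell markers for 1 of 10 and stromal markers for 6 of 6, none being higher, while 1 of 14 HSC markers was higher. The log2 of the summed B cell signal was 14.73 to 14.87 in the untreated pool and 12.70 to 13.62 in untreated Cdk6-/- samples, and 12.20 to 12.36 and 11.96 to 12.39 under polyI:C. The summed granulocyte signal was 18.47 to 18.97 and 17.44 to 18.15 untreated, and 16.51 to 16.89 and 17.55 to 17.93 under polyI:C. For comparison, the summed signal of the 10 genes was 13.49 to 13.51 in the untreated pool, 13.10 to 13.89 in untreated Cdk6-/- samples, 14.82 to 15.07 in the polyI:C pool and 15.20 to 15.51 in polyI:C Cdk6-/- samples. That of the HSC markers was 15.48 to 15.65, 15.62 to 16.21, 15.48 to 15.76 and 15.31 to 15.74. Single HSC markers differed between treatments by -2.57 to 1.33 in the pools and -2.48 to 1.44 in Cdk6-/- cells. Of 14, 8 were higher with treatment in the pools and 7 in Cdk6-/- cells. The change of the ratio also passed, upward, for 5 of 12 granulocyte, 2 of 10 monocyte and 2 of 9 B cell markers (1.60% of all genes). It passed upward for 2 of 10 endothelial or stromal markers as well. Of 15 erythroid (median -0.61), 14 HSC (-0.26), 10 T or NK cell (0.40) and 6 mast cell or basophil markers (1.31), none passed. In the polyI:C ratio 4 of 15 erythroid markers were lower (median -1.02, with 0.654% of all genes lower). There 1 of 10 monocyte markers was higher (0.327% of all genes), and none passed in the other marker lists. Without both arrays low in Xist, 0 of all genes passed in the change of the ratio or in the polyI:C ratio. The untreated marker counts were not rerun without these arrays. The summed signal of the T and NK cell markers was 13.32 to 13.54 in the untreated pool, 13.12 to 13.23 in untreated Cdk6-/- samples, 15.09 to 15.18 in the polyI:C pool and 14.87 to 15.10 in polyI:C Cdk6-/- samples, and thus higher under polyI:C in both genotypes. The part of these cells in the results on the 10 genes was not tested. Of 11 interferon-response genes tested, all had higher mean levels with treatment in both genotypes. The median difference was 1.84 in Cdk6-/- cells and 2.04 in the pools. In Cdk6-/- cells 2 of 11 passed the test (0.110% of all genes), and 0 of all genes did without both arrays low in Xist.

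**Figure D4:**
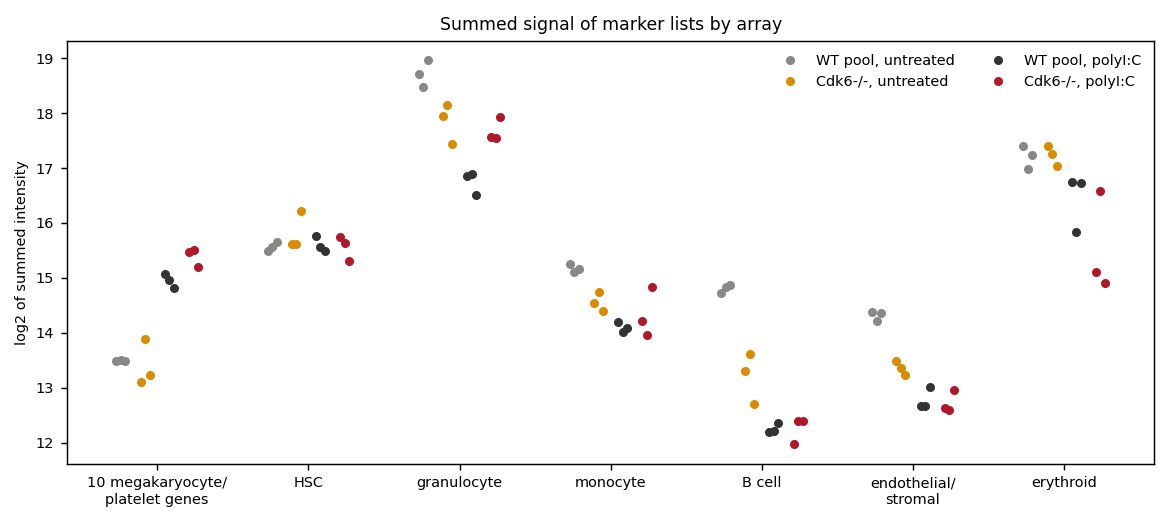
Log2 of the summed signal (y axis) of the 10 megakaryocyte and platelet genes and of marker lists of other cells, 1 point per array, in the pools and Cdk6-/- samples of either treatment. The summed signal of the 10 genes is higher under polyI:C in both genotypes, and B cell and granulocyte sums of the pool are lower. The sum of the HSC list stays within 15.31 to 16.21, while its single markers differ between treatments in both directions.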

How the data were processed

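The files are scanner output of 6 arrays of an Agilent mouse design. Per the labels' protocols, total RNA was pre-amplified as a whole transcriptome and labelled with platinum-bound Cy3 or Cy5, which couple mainly to guanine; per the submitters' processing notes, Agilent Feature Extraction 11.5.1.1 gave the deposited intensities and log10 ratios. The deposited value table holds the scanner's log2 of processed Cy5 over Cy3 and served only as a check.

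Median intensities were corrected with normexp (offset 50) and loess within arrays in limma 3.58.1 (R 4.3.3). Control spots and outlier spots (0.657%) were left out, and spots of a probe averaged. Of 55681 probes, 31802 well above background in either channel on all 3 arrays of a group were tested, with the brightest probe standing for each of 22630 genes. Of 23839 RefSeq accessions, 22240 matched a symbol in RefSeq (GRCm38.p6), and 8998 tested genes carry none. Levels were scaled between arrays by Aquantile. Log2 ratios and Cy5 levels were tested with lmFit and eBayes (4 residual degrees of freedom), adjusted by Benjamini-Hochberg over all genes; for the 10 genes the treatment in Cdk6-/- cells is a description only. An exact test of 3 against 3 cannot go below p = 0.1. The p-values measure the spread between the Cdk6-/- samples together with technical noise. The 3 arrays of a treatment share the same wild-type pool, so variation between wild-type samples enters no p-value. A deviation of that pool would shift all 3 ratios of its treatment alike, and the change of the ratio with them. Intensities give no counts, and the number of arrays limits the precision.

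The genes, the wider lists and the marker lists were chosen with earlier results of these data known. The wider genes named are the 3 highest and 3 lowest per comparison and up to 8 past the threshold, and not every one is printed. The fits were tested on simulated data. Alternatives covered normalization, background, filter, probe choice, slide and each array left out.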

Additional observations from a re-analysis of the deposited data

Results flagged for a closer look

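The difference between Cdk6-/- cells and the wild-type pool was not the same under polyI:C as untreated for 2 of the 10 genes, by limma's test of the change of the log2 ratio. For Itgb3 the ratio rose by 1.62, from -1.37 to 0.25, and for Ppbp by 2.06, from -1.30 to 0.76. In the wider list the same test picked out Clu, whose ratio rose by 1.67 (from -0.75 to 0.92), Fcer1g, whose ratio rose by 1.85 (from -1.07 to 0.78), Lyl1, whose ratio rose by 1.22 (from -0.82 to 0.40), and Tpm4, whose ratio rose by 1.39 (from -0.87 to 0.51). In each of the 6 genes every untreated array had a negative ratio, and 5 of them were positive on every polyI:C array, Itgb3 being the exception at -0.10 on array 3.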

How the results depend on the processing

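Of the 10 genes, 4 passed in the untreated ratio, 0 in the polyI:C ratio and 2 in the change of the ratio. With 1 array left out in turn these counts were 1 to 5, 0 to 0 and 0 to 1, and without both arrays low in Xist, a setting chosen after seeing the data, they were 1, 0 and 0. The change of the ratio gave 0 with processed signals, 0 with slide as a fixed block and 1 without a filter on dim probes. Over all genes, 3.06% were higher and 9.96% lower untreated, 0.327% and 0.654% under polyI:C, and 1.60% and 0.203% in the change. The genes were chosen from the treatment in Cdk6-/- cells, so its counts describe the settings and support nothing: 2 of 10, 0 to 1 with 1 array left out, 0 with processed signals, 0 without both arrays low in Xist, and 1 each with slide as a fixed block, no filter, no background subtraction and quantile normalization of all channels. For that contrast 0.110% of all genes were higher and 0.0574% lower. Median centring gave 5 in the polyI:C ratio. No single gene of the 10 changed sign with a call, while Nfe2 of the wider list was at -0.62 (adjusted p = 0.0357) and at 0.10 with median centring. The cause was not tested.

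Over all genes, calls in the untreated ratio went from 2945 to 6188 with median centring, 1637 without both arrays low in Xist and 1379 to 3429 with 1 array left out. In the polyI:C ratio they went from 222 to 2567 with median centring, 34 with processed signals, 94 without the filter, 0 without both arrays low in Xist and 7 to 219 with 1 array left out. In the change of the ratio they went from 409 to 241, 179, 253 and 0 in the same order, 266 with both channels above background, 0 with slide as a fixed block and 6 to 375 with 1 array left out. For the treatment in Cdk6-/- cells they went from 38 to 64 with median centring, 17 without the filter, 125 and 18 with slide as a random and a fixed block, 0 without both arrays low in Xist and 0 to 22 with 1 array left out. On the wider list, calls in the untreated ratio went from 15 to 7 with processed signals and 4 without both arrays low in Xist. No paired analysis was possible because the labels give no replicate numbers shared by the groups. Gp1ba, Gp5 and Gp6 are limited by signal over background.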
